A study of Mus musculus with 2 samples.

Results

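Leukocyte and inflammatory miRNAs were followed in short RNAs from mouse heart as 7 named genes, Mir155, Mir146, Mir342, Mir150, Mir142, Mir223 and Mir146b, out of 2202 annotated miRNA genes. They were chosen by name, for what they are known to do in blood and immune cells, and with earlier results of these data known. Mir146 is the annotation's symbol for the gene of miR-146a. The study sequenced short RNAs (microRNA-seq) from heart tissue of B6CASTF1/J males at an age of 36 days, the strain being an F1 cross between B6 and CAST mice. The 2 libraries, called library 1 and library 2 after their replicate numbers, form 1 group and come from males with different numbers but the same donor record. No treatment, genotype contrast or other tissue was labelled, so the values describe heart tissue with no labelled treatment and how far its 2 libraries differ, and SDs and p-values measure only the spread or the counting error of these samples.

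A miRNA is cut from the stem of a hairpin transcript as a short single strand, the 5p or 3p arm, and pairs with messenger RNAs mainly through its seed, bases 2 to 8. In leukocytes such RNAs set how immune cells mature and how strongly they respond. miR-155 is induced in activated lymphocytes and macrophages and promotes inflammatory responses. miR-146a is induced through NF-κB, and miR-146a and miR-146b restrain that signalling by acting on Traf6 and Irak1. miR-142 is found across blood cell lineages, miR-223 mainly in granulocytes and other myeloid cells, and miR-150 in mature lymphocytes, where it acts on the transcription factor Myb. miR-342 is known from lymphoid and myeloid cells. Several of these RNAs, miR-155 and miR-146a among them, are also made by endothelial cells and fibroblasts.

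The arms below show which listed arms share a seed and which can be confused with one another in read counting. They are from RefSeq on GRCm38.p6, where 6 of the 7 members have a hairpin and both arms. For Mir150 only miR-150-3p is listed, so its 5p arm and its hairpin were not compared. Each arm is written 5′ to 3′ with the seed in capitals.
miR-155-5p: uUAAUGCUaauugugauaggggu
miR-146a-5p: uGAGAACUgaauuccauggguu
miR-146b-5p: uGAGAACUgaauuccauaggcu
miR-342-3p: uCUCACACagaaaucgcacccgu
miR-150-3p: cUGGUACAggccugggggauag
miR-142a-5p: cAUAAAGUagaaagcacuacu
miR-142a-3p: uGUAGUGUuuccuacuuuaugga
miR-142b: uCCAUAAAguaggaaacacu
miR-223-3p: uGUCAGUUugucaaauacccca
The members' 13 listed arms carry 12 different seeds. miR-146a-5p and miR-146b-5p share the seed GAGAACU, and no other arm among the 1738 mature sequences of the table shares a seed with a listed arm of a member. Their first 17 bases are the same, and they differ by G18A and U21C, with miR-146a's base first and positions counted from the 5′ end. miR-142b comes from Mir142b, a miRNA gene on the strand opposite Mir142, and its 20 bases are all complementary to miR-142a-3p.

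The members lie on 6 chromosomes of the mm10 assembly. Mir155 (chromosome 16, 84714140 to 84714204, plus strand) overlaps an exon of its host RNA Mir155hg. Mir342 (chromosome 12, 108658620 to 108658718, plus) lies in an intron of Evl, a gene for an actin regulator, and Mir146b (chromosome 19, 46342762 to 46342870, plus) in an intron of Mfsd13a. Mir142 (chromosome 11, 87756864 to 87756927, plus) lies in an intron of Mir142hg, and Mir223 (chromosome X, 96242817 to 96242926, plus) overlaps an exon of the RNA gene F630028O10Rik. Mir150 (chromosome 7, 45121757 to 45121821, plus) and Mir146 (chromosome 11, 43374397 to 43374461, minus) overlap no other annotated gene. Within 10000 bp of a member the annotation holds only 2 other miRNA genes, Mir142b at Mir142 and Mir5121 near Mir150, the last with 7 reads in each library.

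Levels are counts per 1000000 (CPM) of sense-strand reads assigned to miRNA genes, 1999362 in library 1 and 1862526 in library 2. A count sums both arms of a hairpin. A read of this size covers about 1 arm, so levels were not divided by the hairpin length, which is 64 to 110 nt among the members. The heart miRNA Mir208a was present at 7004 CPM in library 1 and 3393 CPM in library 2. Of the 7 members, 6 were detected at 10 CPM or more in both libraries, where 11.0% of all 2202 genes were, and the same 6 stood above 100 CPM in both. In whole tissue a level belongs to no single cell type, and fewer cells of a type and less RNA per cell cannot be told apart.

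Mir155, the miRNA of activated lymphocytes and macrophages, had the highest level of the members. It had 7375 reads, or 3689 CPM (exact 95% interval 3605 to 3774), in library 1 and 5574 reads, or 2993 CPM (2915 to 3072), in library 2. Its mean of 3341 ± 492 CPM (SD, n = 2) placed it 34th among all genes by assigned reads. It was the highest member in both libraries. Intervals here are Clopper-Pearson intervals that cover counting error only.

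Mir146, whose miR-146a restrains NF-κB signalling, was the next. It had 3667 reads, or 1834 CPM (1775 to 1894), in library 1 and 4367 reads, or 2345 CPM (2276 to 2415), in library 2. The mean was 2089 ± 361 CPM, rank 42. Mir146 was thus the lower of the pair with Mir155 in each library, by a wider margin in library 1, where Mir155 had 2.01 reads per read of Mir146 (exact 95% interval 1.93 to 2.09) against 1.28 (1.23 to 1.33) in library 2.

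Mir342 and Mir150 followed. Mir342 had 3070 reads, or 1535 CPM (1482 to 1591), in library 1 and 3403 reads, or 1827 CPM (1766 to 1889), in library 2, a mean of 1681 ± 206 CPM and rank 49. Mir150, the lymphocyte miRNA, had 2176 reads, or 1088 CPM (1043 to 1135), in library 1 and 2774 reads, or 1489 CPM (1434 to 1546), in library 2, a mean of 1289 ± 284 CPM and rank 62. For both genes library 2 was the higher.

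Mir142 and Mir223 were lower. Mir142 had 701 reads, or 351 CPM (325 to 378), in library 1 and 492 reads, or 264 CPM (241 to 289), in library 2, a mean of 307 ± 61.1 CPM and rank 95. Mir223, the myeloid miRNA, had 458 reads, or 229 CPM (209 to 251), in library 1 and 380 reads, or 204 CPM (184 to 226), in library 2, a mean of 217 ± 17.7 CPM and rank 106. The intervals of Mir223 in the 2 libraries overlap, and those of the other 5 detected members do not.

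**Figure D1:**
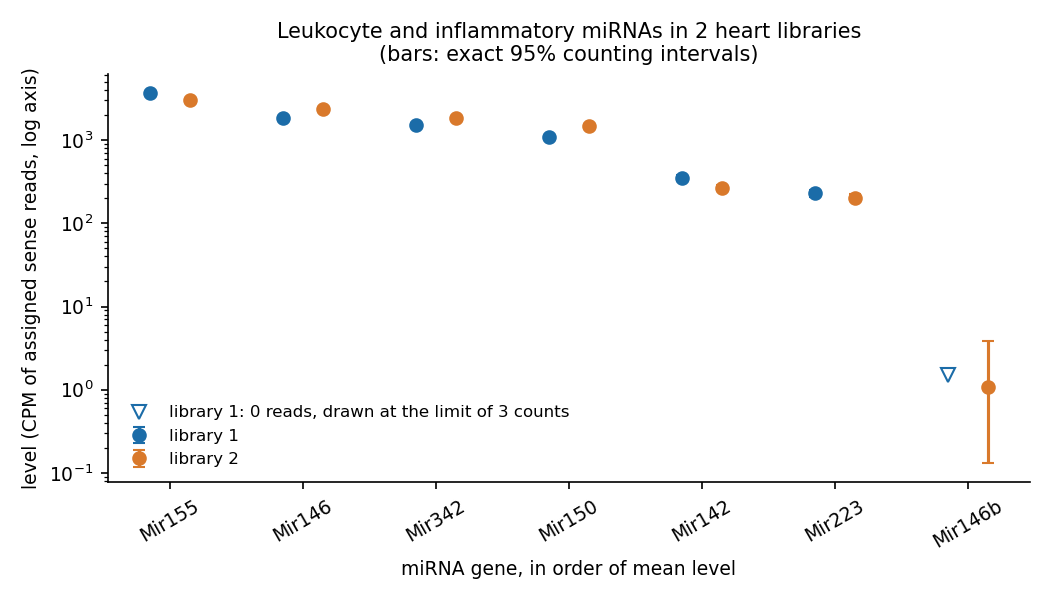
Level of each of the 7 genes in CPM of assigned sense reads (log axis) in library 1 and library 2, with exact 95% counting intervals as bars, which are mostly smaller than the points. 6 genes lie between 204 and 3689 CPM, and Mir146b lies near the limit of 3 counts, drawn as an open triangle for library 1, where it had 0 reads.

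Mir146b stood apart from its seed partner. It had 0 reads in library 1, where the set limit of 3 counts is 1.5 CPM and the exact 95% interval reaches 1.85 CPM. In library 2 it had 2 reads, or 1.07 CPM (0.130 to 3.88). Set against 3 counts, Mir146 was 1222-fold higher than Mir146b in library 1, a less cautious bound than the exact interval gives. In library 2 the ratio was 2184 (exact 95% interval 604 to 18036). Nearly every read counted at these loci thus came from Mir146. The hairpins of Mir146 and Mir146b share a stretch of 21 nt, so reads cut short of the differing bases could map to both loci and be assigned to neither. Of all reads, those mapping to several places made up 41.5% for library 1 and 42.9% for library 2, and their part in the count of Mir146b was not tested.

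No such sharing was found for the other members with a listed hairpin. The longest stretch they have in common with any of 2201 other annotated miRNA hairpins in the same sense was 13 nt for Mir155 and Mir142 and 12 nt for Mir342 and Mir223, shorter than a mature arm. Sequence beyond the annotated hairpins was not searched for copies, and Mir150, without a listed hairpin, was not compared. On the antisense strand none of the 7 members had a read. Counting by strand decided the value of Mir142: with both strands counted together it had 0 reads in each library, while the other members' reads were the same as on the sense strand. Mir142b itself had 0 sense reads in both libraries.

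In the order of levels, Mir155, Mir146, Mir342, Mir150, Mir142, Mir223, the ranges of neighbouring members over the 2 libraries did not overlap for any of the 5 pairs. The order was the same within each library. The gaps were narrow for some pairs: the means of Mir146 and Mir342 lay 1.13 times the larger SD apart and those of Mir342 and Mir150 1.38 times, against 3.46 times for Mir150 and Mir142. With only 2 libraries, no test over samples was run on these pairs.

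**Figure D2:**
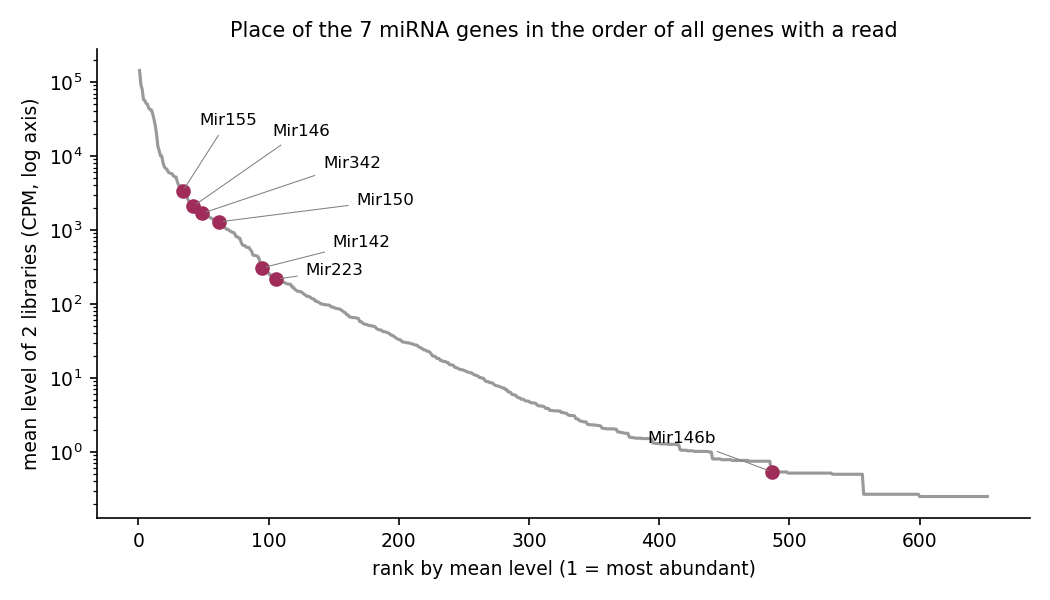
Mean level of 2 libraries in CPM (log axis) against rank for all 652 genes with a read (line), with the 7 members as points. 6 members lie between rank 34 and rank 106, and Mir146b lies at rank 486, tied with other genes of 2 reads.

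Each member's nearest gene by level was looked up over the 2 libraries, which is a likeness in 2 values and nothing more. By distance of log2(CPM + 1), Mir155 lay nearest Mir423 (3405 CPM in library 1 and 2825 CPM in library 2), Mir146 nearest Mir15b, Mir342 nearest Mir676, Mir150 nearest Mirlet7c-2, Mir142 nearest Mirlet7a-2 and Mir223 nearest Mir671 (221 CPM in library 1 and 193 CPM in library 2). These distances were 0.09 to 0.35 on the log2 scale. Directly above and below in mean level stood Mir744 and Mir34a for Mir155, Mir28a and Mir17 for Mir146, Mir92-1 and Mir27a for Mir342, Mir455 and Mir486 for Mir150, Mir379 and Mir339 for Mir142, and Mir574 and Mir24-2 for Mir223.

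The members were next compared between the libraries. Mir155, Mir142 and Mir223 were the higher in library 1, by 1.23, 1.33 and 1.12 times in CPM, while Mir146, Mir342 and Mir150 were the higher in library 2, by 1.28, 1.19 and 1.37 times. A change of at least 2-fold together with an adjusted p below 0.05 was met by none of the 6 tested members, where 17.2% of the 344 tested genes met it. By adjusted p alone 5 of the 6 passed, where 54.1% of tested genes did. Smaller ratios pass where reads are many, and these 6 all stood above 100 CPM. Shares of all tested genes by adjusted p are thus not matched to them in level. The test was an exact conditional binomial test of the reads with Benjamini-Hochberg adjustment over all 344 genes. It sets these 2 libraries against each other on counting error and says nothing about conditions.

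As log2 ratios of library 1 over library 2, Mir155 stood at 0.30 (adjusted p = 2.12e-31, exact binomial test) and Mir142 at 0.41 (adjusted p = 5.13e-06, exact). Mir223 stood at 0.17 and did not pass (adjusted p = 0.163, exact). Mir146 stood at -0.35 (adjusted p = 2.81e-27, exact), Mir342 at -0.25 (adjusted p = 1.34e-11, exact) and Mir150 at -0.45 (adjusted p = 2.81e-27, exact). Of all tested genes, 36.3% passed with library 1 higher and 17.7% with library 2 higher, against 2 and 3 of the 6 members. The members' median absolute log2 ratio was 0.33, beside 0.46 over all tested genes and 0.34 over the 141 tested genes with a mean of 100 CPM or more.

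Part of these directions depended on the scaling. The median log2 ratio of all tested genes was 0.19, and trimmed-mean (TMM) scaling moved every ratio by -0.22 and DESeq2 size factors by -0.19. With TMM scaling Mir146 (-0.58), Mir342 (-0.47), Mir150 (-0.68) and Mir155 (0.08, adjusted p = 0.00577, exact) passed in their direction, where 27.6% of tested genes passed with library 2 higher and 21.8% with library 1 higher. Mir142 kept its sign but did not pass (0.18, adjusted p = 0.0617, exact), and Mir223 changed sign with TMM scaling (-0.057) and with DESeq2 scaling (-0.020). A scaling shifts all genes alike, so the members' order among the tested genes is the same with each.

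**Figure D3:**
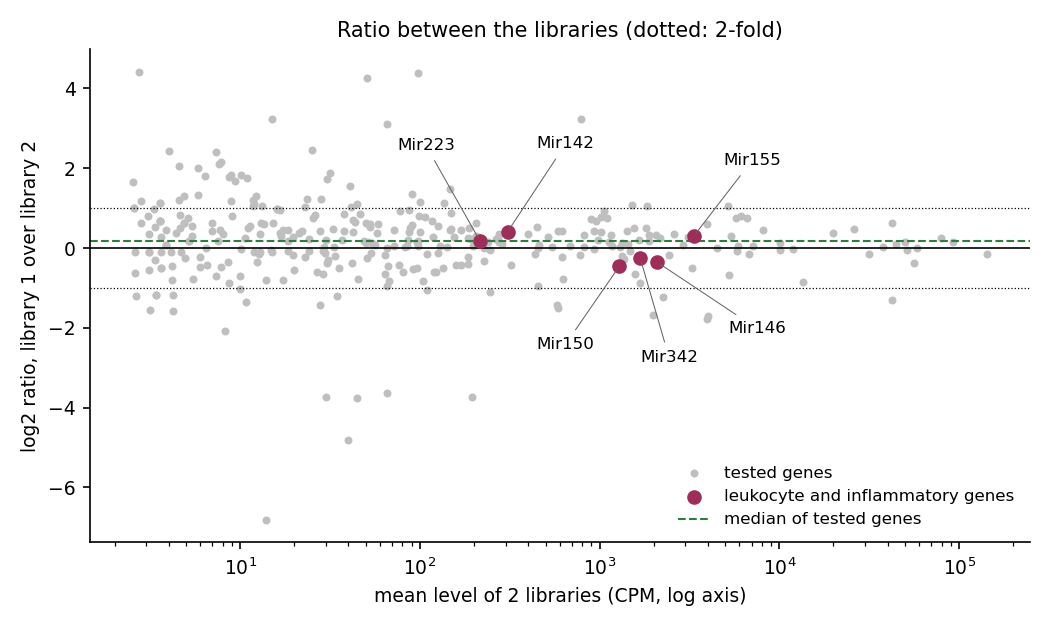
Log2 ratio of library 1 over library 2 against mean level in CPM (log axis) for the 344 tested genes (grey) and the 6 tested members. All 6 lie between -0.45 and 0.41, inside the dotted 2-fold lines, with Mir146, Mir342 and Mir150 under 0 and under the median of tested genes (dashed, 0.19).

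The same counts can be given as ratios within a library, which do not depend on scaling. They restate the differences above and are no further support for them. Mir142 was taken as the denominator, since it is found across blood lineages, and it is also the member with the highest log2 ratio of library 1 over library 2. Mir150 had 3.1 reads per read of Mir142 (exact 95% interval 2.85 to 3.38) in library 1 and 5.64 (5.12 to 6.22) in library 2. Mir146 had 5.23 (4.82 to 5.68) in library 1 and 8.88 (8.08 to 9.76) in library 2, and Mir342 had 4.38 (4.03 to 4.76) in library 1 and 6.92 (6.29 to 7.62) in library 2. For these 3 genes the intervals of the libraries do not overlap. Mir155 had 10.5 (9.74 to 11.4) in library 1 and 11.3 (10.3 to 12.4) in library 2, and Mir223 had 0.653 (0.579 to 0.736) in library 1 and 0.772 (0.674 to 0.885) in library 2, with overlapping intervals for both. The lymphocyte miRNA Mir150 had 4.75 reads per read of the myeloid Mir223 in library 1 (4.29 to 5.27) and 7.3 in library 2 (6.56 to 8.15).

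**Figure D4:**
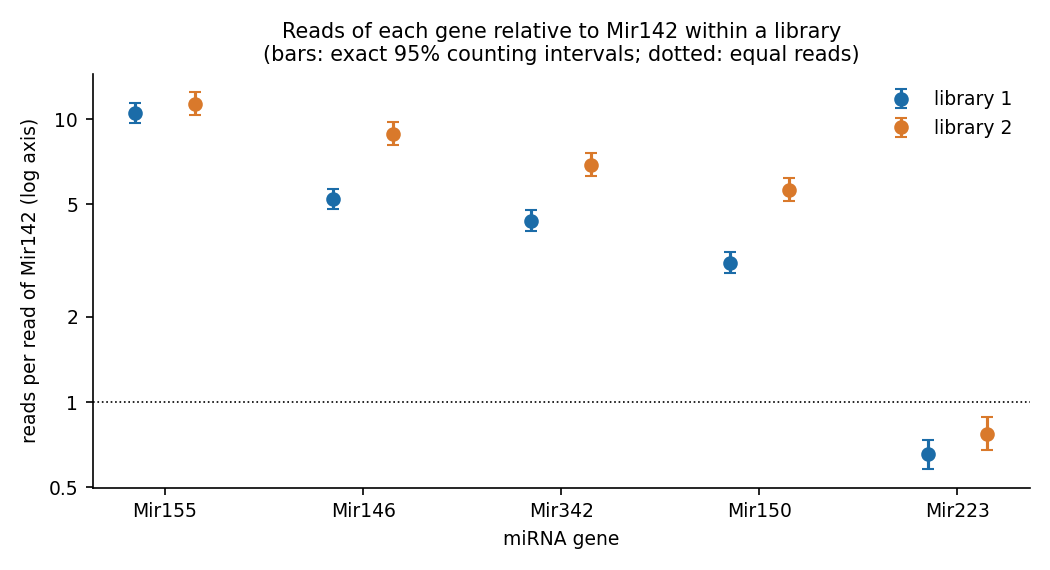
Reads of each gene per read of Mir142 within library 1 and within library 2 (log axis), with exact 95% counting intervals as bars and equal reads as a dotted line. Mir146, Mir342 and Mir150 lie higher in library 2 with intervals that do not overlap, while those of Mir155 and Mir223 do.

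Summed, the members took similar parts of the assigned reads of both libraries, although the exact intervals do not overlap. They held 17447 reads in library 1, or 0.873% of assigned reads (exact 95% limits 0.860 and 0.886), and 16992 in library 2, or 0.912% (0.899 and 0.926), a mean of 0.892% ± 0.0281. The sum was not recomputed with TMM scaling, which moved every log2 ratio by -0.22, toward library 2. The make-up of the sum was less even. Mir155 gave 42.3% of it in library 1 and 32.8% in library 2, and Mir150 gave 12.5% in library 1 and 16.3% in library 2. Mir142 gave 4.02% in library 1 and 2.9% in library 2, and Mir223 gave 2.63% in library 1 and 2.24% in library 2.

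Red blood cell miRNAs were set beside them, since blood left in the tissue carries both kinds of cell. The erythroid list (Mir451a, Mir486 and Mir144) took 0.245% of assigned reads in library 1 (0.238 to 0.252) and 0.197% in library 2 (0.191 to 0.203). The members thus had 3.56 reads per erythroid read in library 1 (3.45 to 3.67) and 4.63 in library 2 (4.47 to 4.8). Mir486 held 2386 of the list's 4902 reads in library 1 and 2163 of 3669 in library 2. Whether its reads came from red cells was not tested. Mir3107, a miRNA gene on the strand opposite Mir486, had 79 sense reads in library 1 and 64 in library 2. Reads mapping to several places are not in the erythroid sum, and their part in the ratio to the members was not tested. Mir451a, a red cell miRNA that matures without Dicer, had 1115 CPM in library 1 and 669 CPM in library 2, while Mir486 had 1193 CPM in library 1 and 1161 CPM in library 2 and Mir144 had 143 CPM in library 1 and 140 CPM in library 2. Of these 3 genes Mir451a passed the adjusted p, with library 1 higher (log2 ratio 0.74), and Mir486 (0.04) and Mir144 (0.03) did not. Mir142 had 0.314 reads per read of Mir451a in library 1 (0.288 to 0.342) and 0.395 in library 2 (0.355 to 0.439). How much of each member came from blood was not tested.

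Lists of resident cells were also set beside the members. The endothelial Mir126a took 4.89% of assigned reads in library 1 and 6.38% in library 2, the fibroblast list 0.248% in library 1 and 0.120% in library 2, and the cardiac muscle list 0.856% in library 1 and 0.67% in library 2. The members had 1.02 reads per cardiac muscle read in library 1 (0.999 to 1.04) and 1.36 in library 2 (1.33 to 1.39). The cardiac list includes Mir1a-1, Mir1a-2, Mir133a-1 and Mir133a-2. These had 5, 115, 5 and 6 assigned reads in library 1 and 4, 102, 3 and 2 in library 2. Reads mapping to several places are in none of these sums, and their part in the ratios was not tested. Within the cardiac list Mir208a was the higher in library 1, while Mir499 had 1336 CPM in library 1 and 3141 CPM in library 2, so the sum holds opposite differences. Of the fibroblast list, Mir199a-1, Mir199a-2 and Mir199b had 0, 17 and 8 assigned reads in library 1 and 0, 6 and 13 in library 2. The fibroblast share of assigned reads was nearly all from Mir214. Mir21a, also known from fibroblasts but held here in the list of other immune miRNAs, went the other way, with 1776 CPM in library 1 and 6143 CPM in library 2. Among epithelial miRNAs the share was 0.046% in library 1 and 0.0947% in library 2. Mir126a and the epithelial share were thus the higher in library 2, as were Mir146, Mir342 and Mir150. Mir221 and Mir222, which endothelial cells also make, were the higher in library 1, at 1997 and 218 CPM there and 1765 and 77.3 CPM in library 2, although the log2 ratio of Mir221 turned to -0.045 with TMM scaling. The part of these cells in the members' differences was not tested.

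**Figure D5:**
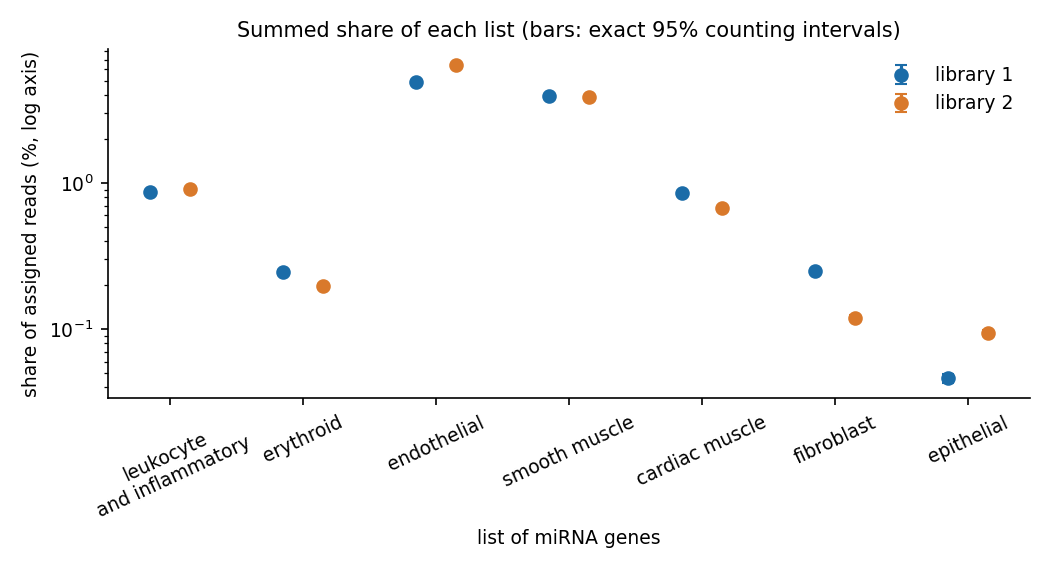
Share of assigned reads (percent, log axis) of the leukocyte and inflammatory genes and of 6 lists of other cell types in library 1 and library 2, with exact 95% counting intervals as bars. The leukocyte and inflammatory genes lie at 0.873% in library 1 and 0.912% in library 2, above the erythroid list and below Mir126a, which stands for endothelium.

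Other miRNAs known from immune cells or inflammatory signalling were looked up as a list of 34 genes, of which 2 had no read in either library. Those with the highest levels were Mir23a (42206 ± 13034 CPM), Mir125a (10073 ± 626 CPM) and Mirlet7e (6806 ± 499 CPM), all above Mir155 and all known from many cell types besides leukocytes. Of 31 tested genes, 16 passed the adjusted p with library 1 higher and 9 with library 2 higher, where 36.3% and 17.7% of all tested genes did, and by both criteria 3 passed in each direction, beside 17.2% of all tested genes in either direction. These 6, named after their values were seen, were Mir222, Mir182 and Mir181b-1 in library 1 and Mir21a, Mir31 and Mir511 in library 2. With TMM scaling both criteria were met by 2 in library 1 and 5 in library 2, beside 16.6% of all tested genes, so these counts lie near the background. Mir511, known from macrophages and carried in the mannose receptor gene Mrc1, had 12 reads in library 1 and 29 in library 2, far under Mir142 in both. The macrophage miRNA Mir147, also named after its values were seen, had 10 reads in library 1 and 4 in library 2. The list's median mean level was 424 CPM, beside 1289 CPM over the 7 members. Reads mapping to several places are in neither median, and their part in this difference was not tested.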

How the data were processed

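The deposited tables have no header and hold raw counts per miRNA gene for both strands, the sense strand and the antisense strand, a reading taken from the values. Per the text deposited with them, the authors used mm10 and annotation M21. Which aligner and counter they ran is not given in the sources used here. Status rows (63.5% of reads in library 1 and 61.9% in library 2) entered no total and no test. All 2202 identifiers matched GENCODE M21.

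CPM used sense-strand gene totals. With 1 group no model of a condition could be fitted, so genes with 10 or more reads over both libraries entered an exact two-sided conditional binomial test (scipy 1.17.1), Benjamini-Hochberg adjusted, called at 0.05 and 2-fold. Ratios had 0.5 added to each count. edgeR 4.0.16 (TMM) and DESeq2 1.42.0 gave alternative scalings only. The test was checked on simulated counts that held counting error only, so the check cannot show how it fares with spread between animals. Without molecular identifiers in the labels, PCR reads are not independent molecules.

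The members and lists were chosen with earlier results of these data known. Genes named are the members, their neighbours in level, sequence and position, and the leading genes of each list. Mir486b, named in the erythroid list, was not analysed here.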

Additional observations from a re-analysis of the deposited data

How the results depend on the processing

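The alternatives changed scales more than calls. With all reads as the denominator the members' median level was 482 CPM and their summed share 0.333%. With both strands counted together these were 1677 CPM and 1.12%, and the members had 61.0 reads per erythroid read, since Mir451a and Mir486, which had 0 reads there, have a miRNA gene opposite them. Without the most abundant gene the share was 1.04%. Genes past both criteria numbered 33 at 100 or more counts, 105 at 1.5-fold and 186 by adjusted p alone, which also called 5 members. Mir223 changed sign with TMM scaling (-0.057) and DESeq2 scaling (-0.020). The cause was not tested. Leaving out either library gave a share of 0.873% to 0.912%, and a ratio of Mir146 to Mir146b of 1222, a bound, to 2184, beside 4017 for both libraries. No paired analysis was possible because the libraries form 1 group. Mir146b alone among the members had too few reads to enter the test. Whether depth or reads shared with Mir146 kept its count low was not tested. With 2 libraries no spread between animals can be tested.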
